A study of Mus musculus with 45 samples.

Results

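A high fat diet (HFD) was compared with a reference diet low in fat (RFD) after 9 weeks of feeding, by RNA-seq of tuft cells sorted from the small intestine. The comparison takes 22 of the 45 samples analysed, namely the 11 samples of the STF set whose titles end in HFD and the 11 whose titles end in RFD. Each sample was a library made from the sorted cells of 1 male C57BL/6J mouse kept at thermoneutral temperature, and the labels give no allele or agent beside the diet. Fat, from lard and soybean oil, gave 10% of the energy of the RFD and 60% of that of the HFD. The study also lists more starch in the RFD than in the HFD. The mice entered the study young and were fed the diets for 9 weeks. The methods of the study give the sorted cells as live EpCAM+CD45+ Siglec-F+ cells. They also state that CD45 served to exclude cells that carry it, so the use of CD45 is not clear. The cDNA was amplified by the Smart-seq2 method. The mice of a diet shared cages, so effects of a cage and of a diet within a day of sampling cannot be told apart.

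Tuft cells are rare epithelial cells that sense the content of the gut lumen through a taste-type signalling cascade that ends in the cation channel Trpm5. They release the cytokine IL-25, which acts on group 2 innate lymphoid cells of the lamina propria, and also acetylcholine and eicosanoids. In the intestinal epithelium, dietary fatty acids are known to activate nuclear receptors of the PPAR family, whose target genes include enzymes of fatty acid oxidation, ketone body synthesis and fatty acid hydroxylation.

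Beside tuft cell markers, the sorted samples carried reads of marker genes of other epithelial cells, in amounts that differed between mice. Expression is given as CPM, the reads of a gene scaled to the size of its library with TMM factors, so that the CPM of 1 library do not have a fixed sum. The 25 tuft cell markers summed to 4788 to 33112 CPM on RFD (median 20261) and to 512 to 32492 CPM on HFD (median 8346), so that the groups overlapped but the HFD samples were lower on the whole. Markers of Paneth cells, the antimicrobial secretory cells of the crypt base, ran from 59.4 to 120402 CPM on RFD (median 3179) and from 117 to 676845 CPM on HFD (median 28711). HFD mouse 80 had the lowest tuft marker sum and the highest Paneth marker sum, with 37.0% of its reads on Paneth markers. All 10 Paneth markers had a log2 fold change above 0, and none was called in the fit without covariates. With the number series as a term 2 were called, in a fit that called 298 of 14020 genes higher. The 8 markers of stem and dividing cells summed to 253 to 2211 CPM on RFD (median 478) and to 154 to 6803 CPM on HFD (median 1500.3). Enterocyte markers ran from 5017 to 16624 CPM on RFD (median 12472) and from 6835 to 30877 CPM on HFD (median 9069), while goblet cell markers had medians of 2237 and 2770.1 CPM and enteroendocrine markers 401 and 242 CPM. Markers of B and plasma cells differed widely between mice, from 0 to 3484 CPM on RFD (median 188) and from 0 to 3541 CPM on HFD (median 3.78), and macrophage markers ran from 3.1 to 617 CPM on RFD (median 31.8) and from 0 to 851 CPM on HFD (median 7.09). T cell markers ran from 0 to 58.6 CPM on RFD and from 0 to 62.5 CPM on HFD, and medians on RFD and HFD were 4.08 and 1.98 CPM for eosinophils, 33.1 and 72.8 CPM for M cells and 6.37 and 0.69 CPM for red blood cells. In bulk samples, fewer cells of a type and less RNA per cell cannot be told apart. Paneth markers exceeded 100000 CPM in 5 samples, RFD mice 10 and 20 and HFD mice 8, 70 and 80. Total reads on genes ran from 189340 to 4193097 on RFD and from 409023 to 3600000 on HFD, and fell below 500000 in RFD mouse 40 and HFD mouse 50. The share of reads on the gene AY036118 had a median of 11.8% on RFD and 4.65% on HFD.

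**Figure D1:**
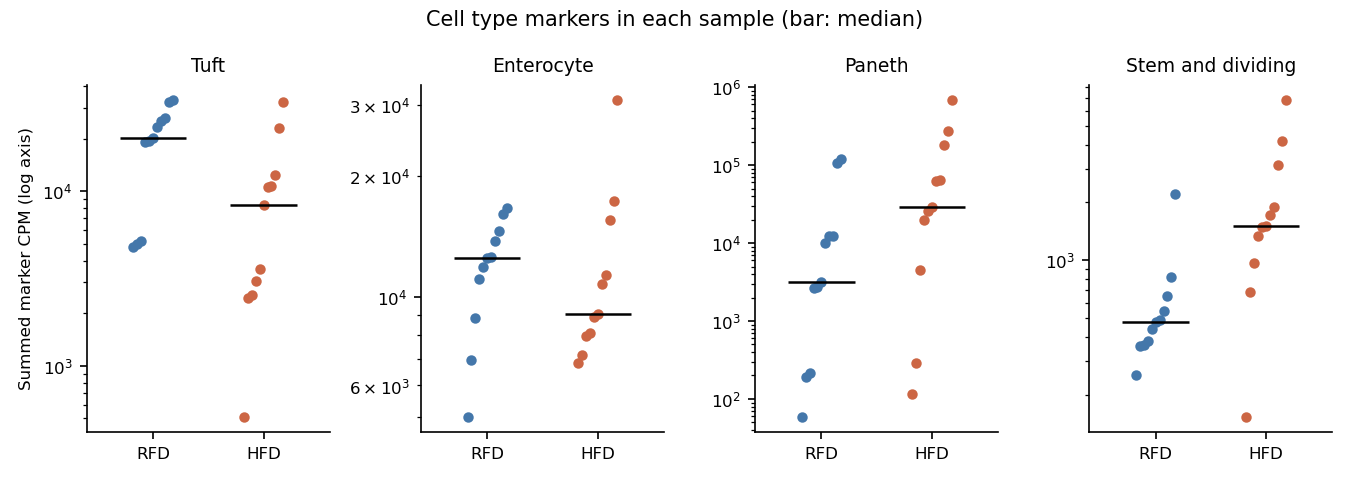
Summed CPM of cell type markers in each sample, on log axes, for the 11 RFD and 11 HFD mice, with each point a mouse and each bar a group median. Tuft markers had medians of 20261 CPM on RFD and 8346 CPM on HFD, and Paneth markers 3179 and 28711 CPM.

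Mice are numbered in 3 runs, called series here, whose meaning is not given. They are the numbers 1 to 8 with 3 RFD and 4 HFD mice, the multiples of 10 with 3 RFD and 4 HFD mice, and the other numbers from 21 to 64 with 4 RFD and 3 HFD mice, while RFD mouse 84 belongs to none. Within the series, median tuft marker sums on RFD and HFD were 19282 and 5707 CPM, 4973 and 3003 CPM, and 29245 and 22949 CPM. Differences of mean log2 CPM within the series are given below in that order.

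Of the 14020 genes tested, 431 (3.07%) were called different between the diets at an adjusted p under 0.1 by the quasi-likelihood test of edgeR, adjusted after Benjamini and Hochberg, which is the source of every adjusted p given here. On HFD, 257 genes (1.83%) were higher and 174 (1.24%) were lower. The median log2 fold change of all genes tested was -0.05. An unadjusted p under 0.05 was reached by 2548 genes, 1382 higher and 1166 lower. DESeq2 called 832 higher and 702 lower among the 8311 genes to which it gave an adjusted p. Counts of these 2 kinds in the gene lists below stand against these totals. The count depended on single mice, and it moved by over 1.5 times without any one of 17 mice. Without RFD mouse 1, 3, 84, 20, 21, 22, 23 or 24 it was 83, 92, 99, 1708, 78, 112, 73 or 78 genes, and without HFD mouse 5, 6, 8, 50, 70, 80, 62, 63 or 64 it was 209, 48, 76, 187, 61, 57, 162, 907 or 2004. A core of 44 genes, 21 higher and 23 lower, was called in each of the 22 fits that left out 1 mouse, and all 44 had 1 direction in all 3 number series. For a called gene outside the core, the number of these 22 fits in which the call was kept is given with its statistics. With the tuft marker level minus the enterocyte marker level as a covariate, 87 genes (0.621%) were called, among them 38 of the 44. With the Paneth marker level as a covariate only 18 genes (0.128%) were called, 16 of them in the core, while 406 genes (2.9%) were called without the 5 samples rich in Paneth markers, among them 42 of the 44. Without the mouse numbers 1 to 8, 0 genes were called, so no core gene was. Without the multiples of 10, which are as many mice of each diet, 642 genes were called. Without the numbers 21 to 64 it was 173 genes. The calls therefore depended on the numbers 1 to 8, and the cause was not tested. Limma on TPM called 9 genes at a pseudocount of 1 and 5 at 0.1. The number series are parts of the same mice that gave the core, so a shared direction in them is no separate evidence. The groups did not overlap for 3 genes (0.0214%), which were Pccb, Nup54 and Kpnb1, the last named after its values were seen. The plot by number series shows 28 of the 30 genes with the smallest p in either direction.

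**Figure D2:**
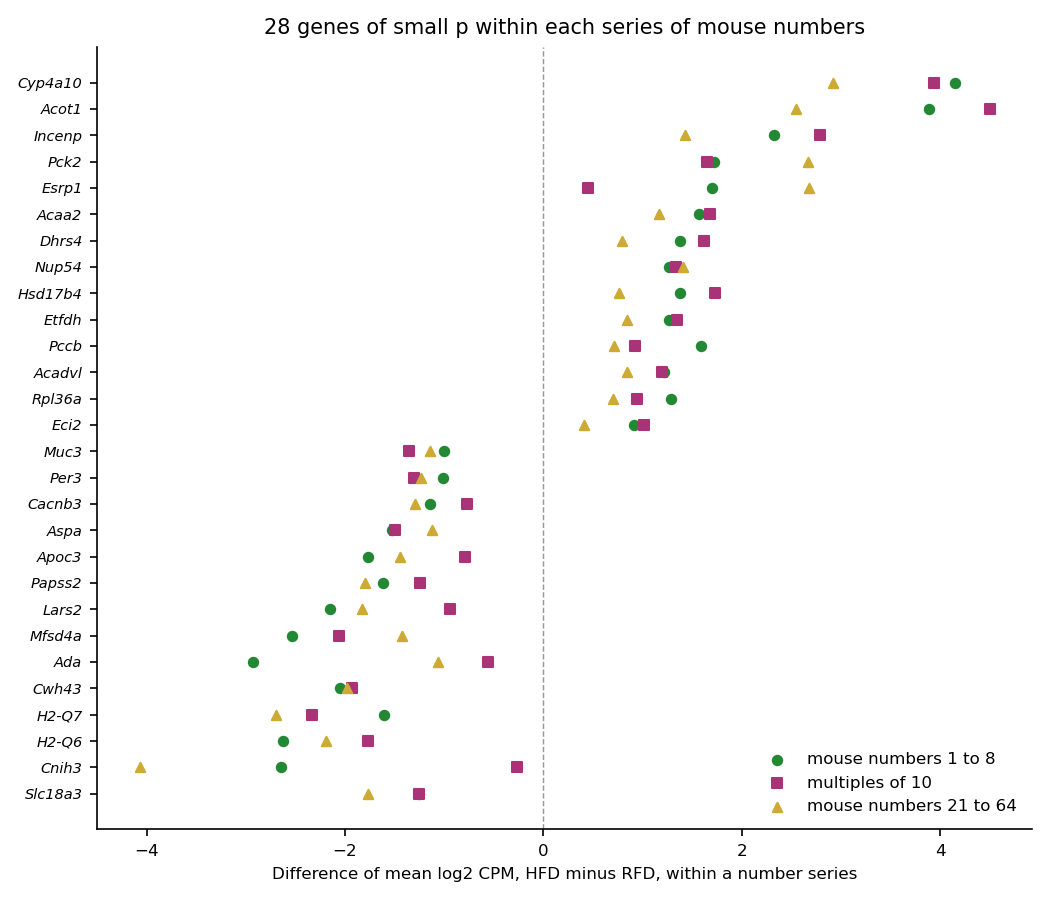
Difference of mean log2 CPM between HFD and RFD mice within each of the 3 series of mouse numbers, for 14 genes called higher and 14 called lower that are among the 15 of smallest p in each direction. Each symbol is 1 series, and all 3 symbols of a gene lie on the same side of 0, between -4.07 for Cnih3 in the series 21 to 64 and 4.5 for Acot1 in the multiples of 10.

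Genes that break down fatty acids were higher on HFD. Of the 18 tested genes of mitochondrial fatty acid oxidation, 7 were called higher, against 1.83% of all genes, and 0 lower, with a median log2 fold change of 0.60 against -0.05 for all genes tested. Etfdh (chr3:79603788-79629500, GRCm38), which passes electrons from acyl-CoA dehydrogenases to the respiratory chain, had 38.8 to 79.1 CPM on RFD (median 60.5) and 72.6 to 201 CPM on HFD (median 129.5). It rose (log2 fold change 1.22, SE 0.20, adjusted p = 0.00673), and 10 of 11 HFD mice were above every RFD mouse. Acadvl, the dehydrogenase of very long acyl chains, had 89.1 to 263 CPM (median 143) on RFD against 204 to 488 CPM (median 346) on HFD (log2 fold change 1.1, SE 0.23, adjusted p = 0.0289). For Etfdh 1 HFD mouse reached into the RFD range and for Acadvl 3 did. Acaa2, the thiolase of the last step, rose from a median of 115 to 472 CPM (log2 fold change 1.5, SE 0.32, adjusted p = 0.0359). Eci2, an isomerase for unsaturated acyl chains, was above every RFD mouse in 10 of 11 HFD mice (log2 fold change 0.89, SE 0.19, adjusted p = 0.0359). Each of the 4 was called in all 22 fits that left out 1 mouse, and the count of the list was 4 without HFD mouse 6 and 10 at most. Within the number series Etfdh differed by 1.27, 1.35 and 0.84 and Acadvl by 1.22, 1.19 and 0.84. The median sum of tuft markers was lower and that of Paneth markers higher on HFD, and their part in the result was not tested beyond fits with a covariate, in which 4 members stayed called with the tuft and enterocyte markers and 1 with the Paneth markers.

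The 2 genes with the smallest p, Acot1 and Cyp4a10, are known PPAR targets, and they had few reads on RFD. Cyp4a10, an omega-hydroxylase of fatty acids (chr4:115518264-115533649), had 0 to 3.52 CPM on RFD (median 0) and 0 to 72.8 CPM on HFD (median 24.5), with no read in 7 of 11 RFD mice and 1 of 11 HFD mice. It was called higher (log2 fold change 5.54, SE 0.81, adjusted p = 0.0015). Acot1, a cytosolic enzyme that frees fatty acids from coenzyme A (chr12:84009490-84018371), had 0 to 6.11 CPM (median 1.74) on RFD against 0 to 92.2 CPM (median 45) on HFD (log2 fold change 4.36, SE 0.63, adjusted p = 0.0015). For each of the 2 genes 10 HFD mice were above every RFD mouse, and 1 HFD mouse had no read. Within the number series Acot1 differed by 3.88, 4.5 and 2.54 and Cyp4a10 by 4.15, 3.94 and 2.92. The HFD mouse with no read of either gene was mouse 64, which had the highest tuft marker sum among the HFD mice (32492 CPM). Acot1 and Cyp4a10 were also called with the tuft and enterocyte covariate, with the Paneth covariate and without the 5 samples rich in Paneth markers. Both have close paralogs whose reads are divided during counting, so their levels are uncertain.

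**Figure D3:**
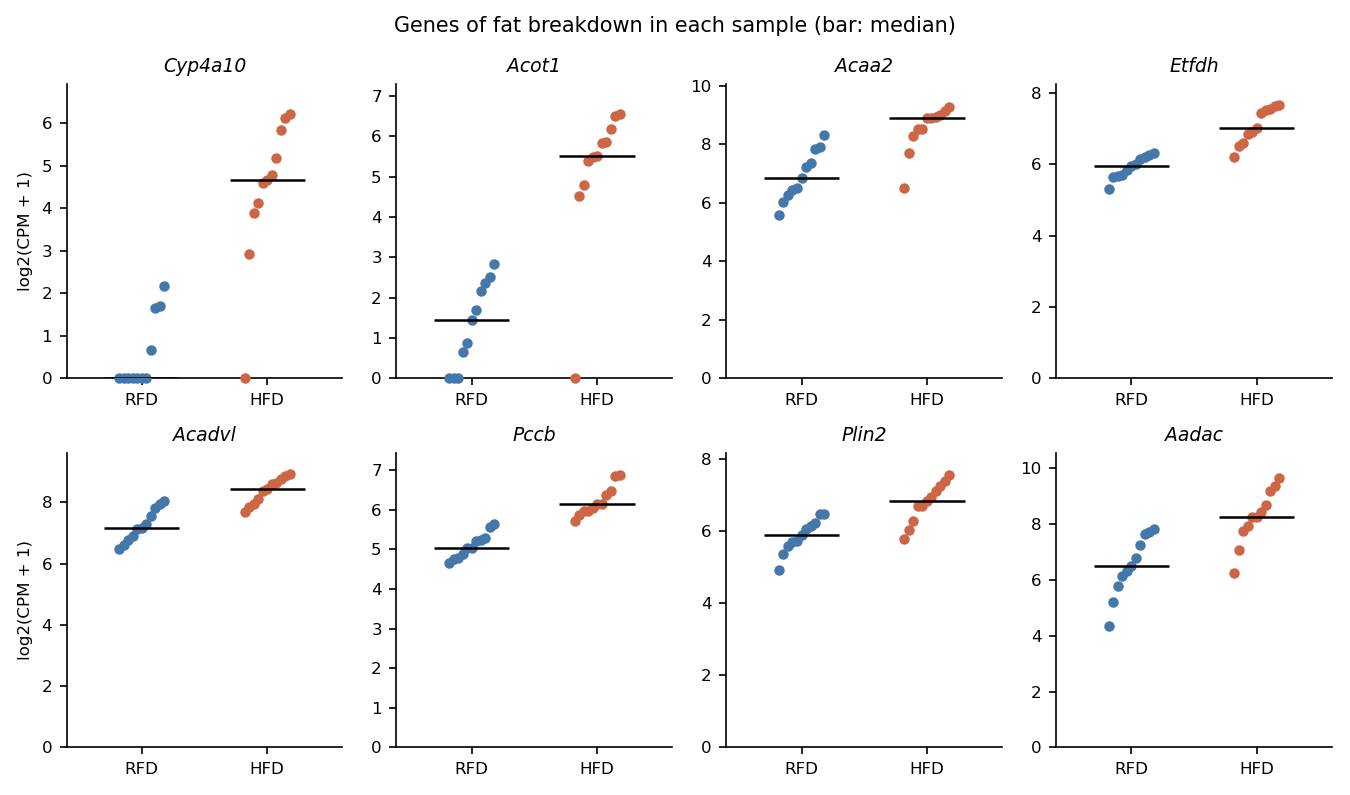
Expression as log2(CPM + 1) in each mouse for 8 genes of fat breakdown, with points for the 11 mice of each diet and bars at the medians. Cyp4a10 and Acot1 had medians of 0 and 1.74 CPM on RFD and 24.5 and 45 CPM on HFD, and the Pccb groups did not overlap.

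Peroxisomes shorten very long and branched fatty acids. In the peroxisomal list 2 of 15 tested genes were called higher and 0 lower (median log2 fold change 0.42), namely Hsd17b4, the multifunctional enzyme of the pathway, from a median of 61 to 158 CPM (log2 fold change 1.28, SE 0.28, adjusted p = 0.0359), and Abcd3, which carries acyl-CoA into the organelle, from 82.1 to 140.1 CPM (log2 fold change 0.86, SE 0.25, adjusted p = 0.0811, call kept in 8 of 22). Acat1, an acetoacetyl-CoA thiolase, was called higher, with 37.6 to 185 CPM on RFD (median 58.8) and 52.4 to 272 CPM on HFD (median 186) (log2 fold change 1.05, SE 0.29, adjusted p = 0.0769, call kept in 8 of 22). The second called member of the 8 Cyp4 hydroxylase genes was Cyp4f16, with 21.2 to 57.5 CPM (median 31.7) on RFD against 46.8 to 107 CPM (median 63.4) on HFD (log2 fold change 0.89, SE 0.21, adjusted p = 0.0501, call kept in 21 of 22). The Cyp4 list as a whole had a median of -0.25, on the other side of 0 from its called members. Of 12 genes of lipid droplets and fasting, 2 were called higher. Plin2, the coat protein of lipid droplets, had 29.4 to 87.7 CPM on RFD (median 58.1) and 53.8 to 187 CPM on HFD (median 112) (log2 fold change 0.94, SE 0.23, adjusted p = 0.0577, call kept in 14 of 22), and Pdk4, a kinase that turns off pyruvate dehydrogenase, rose from no read in 7 RFD mice to a median of 3.18 CPM on HFD (log2 fold change 3.65, SE 0.94, adjusted p = 0.0691, call kept in 12 of 22). Among 16 genes of fatty acid uptake and activation, 1 was called, Acss1, a mitochondrial acetyl-CoA synthetase, with medians of 28.6 and 70.9 CPM (log2 fold change 1.52, SE 0.36, adjusted p = 0.0513, call kept in 19 of 22).

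No gene of lipid synthesis passed the test, and 1 gene of lipid export was lower. None of 17 genes of malic enzyme and fatty acid synthesis was called in edgeR's test (median log2 fold change 0.03), and none of 25 genes of cholesterol synthesis and transport was (median -0.23). At an unadjusted p under 0.05 they counted 2 higher and 1 lower, and 1 higher and 4 lower, and with DESeq2 1 higher and 1 lower, and 1 higher and 1 lower. Of all 14020 genes, 1382 were higher and 1166 lower at an unadjusted p under 0.05. The members with the most reads were Me2, a mitochondrial malic enzyme (log2 fold change 0.37, adjusted p = 0.383), the elongase Elovl1 (-0.50, adjusted p = 0.214), and Fdps and Hmgcs1 of the sterol pathway (-0.75 and -0.35, adjusted p = 0.267 and 0.426). Among 16 genes of chylomicron assembly the 1 called gene was lower. It was Apoc3, an apolipoprotein that slows the clearance of triglycerides, with 38.2 to 274 CPM on RFD (median 89.4) and 18 to 63.7 CPM on HFD (median 35.9), below the RFD median in 11 of 11 HFD mice (log2 fold change -1.56, SE 0.30, adjusted p = 0.0187). Apoc3 was called in all 22 fits that left out 1 mouse.

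Single mitochondrial enzymes outside fat oxidation were called higher. The lists of Pccb, Ndufa4 and Idh2 gave 1 call each, in 20, 33 and 29 genes, against 1.83% of all genes called higher. These counts are therefore not read as a result about the lists. Pccb, a subunit of propionyl-CoA carboxylase, which takes up the end product of odd-chain fatty acids and branched-chain amino acids (chr9:100982032-101034898), had 24.1 to 48.7 CPM on RFD (median 32.1) and 51.3 to 118 CPM on HFD (median 70), so that the lowest HFD mouse was above the highest RFD mouse (log2 fold change 1.16, SE 0.19, adjusted p = 0.00673). It was the 1 called gene of 20 in its list, whose median was 0.55. Pck2, the mitochondrial enzyme that makes phosphoenolpyruvate, had 0 to 14 CPM on RFD (median 8.27) and 11.7 to 67.9 CPM on HFD (median 29.1) (log2 fold change 2.04, SE 0.44, adjusted p = 0.0362). Of 33 nuclear genes of the respiratory chain, Ndufa4 was called higher (log2 fold change 0.69, SE 0.20, adjusted p = 0.0836, call kept in 7 of 22) and the list median was 0.31, and of 29 genes of glycolysis and the citrate cycle, Idh2, a mitochondrial isocitrate dehydrogenase, was (log2 fold change 0.97, SE 0.30, adjusted p = 0.094, call kept in 5 of 22). The 15 genes encoded on mitochondrial DNA had a median of -0.31 with none called by edgeR and 0 by DESeq2, and 1 at an unadjusted p under 0.05. Their member with the most reads, mt-Rnr2, had medians of 27044 CPM on RFD and 27272 CPM on HFD. Ppargc1a, a coactivator of mitochondrial genes, had 13.5 to 36.1 CPM (median 21.9) on RFD against 0 to 21.4 CPM (median 17.5) on HFD and was not called (log2 fold change -0.93, adjusted p = 0.409), although 5 HFD mice were below every RFD mouse. These were mice 62, 63 and 64, the HFD mice of the numbers 21 to 64, with 0 CPM each, and mice 5 and 80 with 6.92 and 10.02 CPM. Of 17 genes for PPAR and HNF4 receptors and their partners, the 1 called was Cdx2, the factor that sets intestinal identity, with 29.7 to 104 CPM on RFD (median 53.2) and 82.2 to 193 CPM on HFD (median 107) (log2 fold change 0.90, SE 0.21, adjusted p = 0.0541, call kept in 16 of 22).

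Genes of retinoid and ester handling were among those higher. Of 13 genes of retinoid metabolism 3 were called higher and 0 lower (median 0.73). Dhrs4, a retinal reductase of peroxisomes, had 31.8 to 124 CPM on RFD (median 64.2) and 38.5 to 338 CPM on HFD (median 174) (log2 fold change 1.43, SE 0.28, adjusted p = 0.0187), Rbp2, the retinol carrier of enterocytes, rose from a median of 195 to 489 CPM (log2 fold change 1.32, SE 0.32, adjusted p = 0.0577, call kept in 17 of 22), and Retsat, a retinol saturase, from 40.8 to 136 CPM (log2 fold change 1.42, SE 0.35, adjusted p = 0.0624, call kept in 13 of 22). Rbp2 is also 1 of the 16 enterocyte markers, whose median log2 fold change was -0.19. Among 10 esterase genes 2 were called, Aadac, an arylacetamide deacetylase, with 19.4 to 225 CPM (median 88.9) on RFD against 74.4 to 809 CPM (median 306) on HFD (log2 fold change 1.72, SE 0.39, adjusted p = 0.049, call kept in 21 of 22), and the carboxylesterase Ces1f, with medians of 13.6 and 69 CPM (log2 fold change 2.19, SE 0.55, adjusted p = 0.0624, call kept in 14 of 22). Of these 5 genes, Dhrs4 alone stayed called with the tuft and enterocyte covariate (adjusted p = 0.0542). Their adjusted p there was 0.277 for Retsat, 0.111 for Aadac and 0.178 for Ces1f. It was 0.183 for Rbp2, which is itself part of that covariate, so its value there is no separate check.

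**Figure D4:**
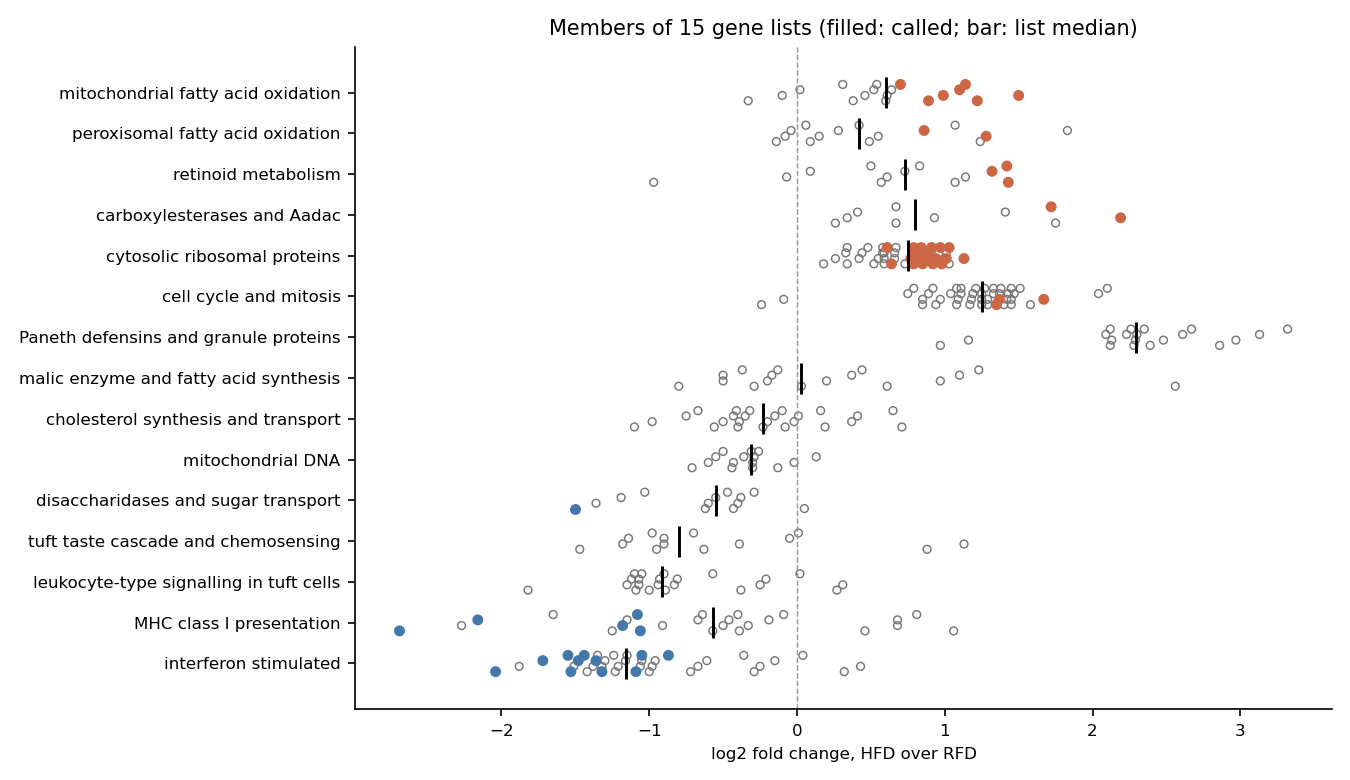
Log2 fold change between HFD and RFD of every tested member of 15 gene lists, 1 point per gene, filled where called at an adjusted p under 0.1, with bars at the list medians. List medians ran from -1.16 for interferon-stimulated genes to 2.3 for Paneth cell products, of which none was called in the fit without covariates.

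Single genes of the enterocyte brush border that handle sugars, peptides and mucus were lower. Mgam, the maltase-glucoamylase that splits starch products (chr6:40628831-40769123), had 169 to 671 CPM on RFD (median 329) and 9.62 to 201 CPM on HFD (median 124), below every RFD mouse in 8 of 11 HFD mice (log2 fold change -1.5, SE 0.32, adjusted p = 0.0359). It was the 1 called gene of 13 in the sugar list (median -0.55). With the tuft and enterocyte covariate 6 members were called lower, against 53 of all 14020 genes. Sis, Lct, Slc5a1 and Treh of this list are also enterocyte markers of that covariate, so these calls are no separate support. Slc15a1, the peptide transporter PEPT1, was the 1 called gene of 20 in the peptide list and fell from a median of 37.4 to 11.1 CPM (log2 fold change -1.45, SE 0.39, adjusted p = 0.0747, call kept in 11 of 22). The peptide list itself had a median of 0.18, on the other side of 0. Muc3, a membrane mucin of the brush border (chr5:137134922-137149322), had 49.7 to 123 CPM on RFD (median 90.3) and 20.6 to 64.1 CPM on HFD (median 35.1) (log2 fold change -1.25, SE 0.22, adjusted p = 0.0146), with 9 HFD mice below every RFD mouse. It had the smallest p of all lower genes and differed by -1.0, -1.35 and -1.14 within the number series. In the list of 15 mucins and goblet cell products the other called gene was higher, Ccl9, a chemokine also expressed in the epithelium over lymphoid follicles, with medians of 6.78 and 32.8 CPM (log2 fold change 2.23, SE 0.67, adjusted p = 0.0904, call kept in 6 of 22). Papss2, which makes the sulfate donor for mucin and steroid sulfation, had 75.3 to 420.2 CPM (median 193) on RFD against 23.3 to 157 CPM (median 57.3) on HFD (log2 fold change -1.6, SE 0.30, adjusted p = 0.0183), and the sulfotransferase Sult2b1 fell from a median of 29.7 to 15.6 CPM (log2 fold change -0.86, SE 0.25, adjusted p = 0.0866, call kept in 7 of 22). In the same list of 23 genes, the bilirubin glucuronosyltransferase Ugt1a1 (log2 fold change 1.1, SE 0.31, adjusted p = 0.0811, call kept in 7 of 22) and its neighbour Ugt1a7c (log2 fold change 1.19, SE 0.33, adjusted p = 0.0766, call kept in 9 of 22) were higher. The Ugt1a genes share exons, so the division of reads between them is uncertain.

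**Figure D5:**
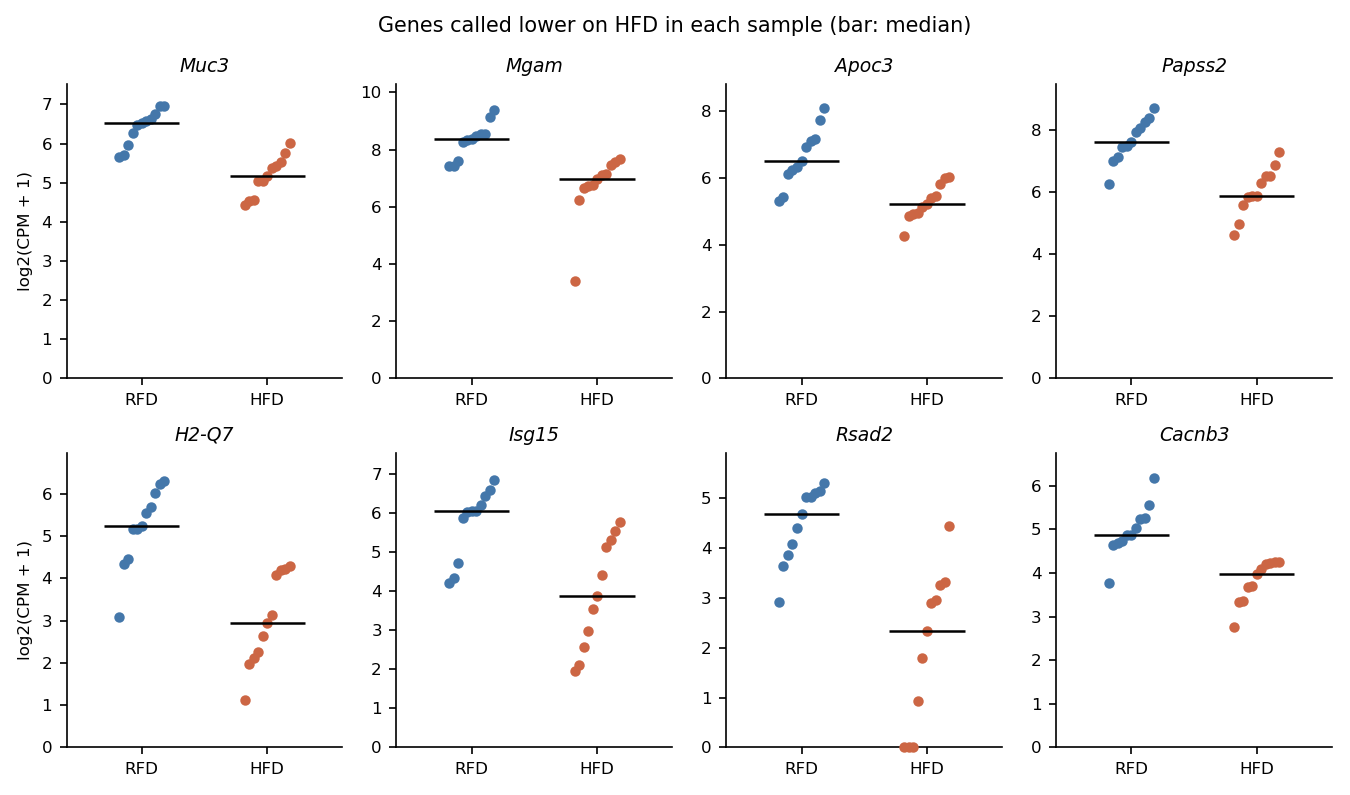
Expression as log2(CPM + 1) in each mouse for 8 genes called lower on HFD, with points for the 11 mice of each diet and bars at the medians. Muc3 and Mgam had medians of 90.3 and 329 CPM on RFD against 35.1 and 124 CPM on HFD, and Isg15 and H2-Q7 had 65.8 and 36.9 CPM against 13.7 and 6.76 CPM.

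A group of interferon-stimulated genes was lower on HFD. Of 38 tested, 11 were called lower, against 1.24% of all genes, and 0 higher, and the median log2 fold change was -1.16. Bst2, a protein that tethers budding virus particles, had 6.37 to 61.5 CPM on RFD (median 29.6) and 2.91 to 25.7 CPM on HFD (median 11.4) (log2 fold change -1.36, SE 0.33, adjusted p = 0.0609, call kept in 14 of 22). Irf9, the DNA-binding part of the factor that interferons activate, had 19.1 to 72.2 CPM (median 52.7) on RFD against 12.2 to 46.6 CPM (median 18.8) on HFD (log2 fold change -1.05, SE 0.26, adjusted p = 0.0616, call kept in 13 of 22). Isg15, a ubiquitin-like modifier, fell from a median of 65.8 to 13.7 CPM (log2 fold change -1.53, SE 0.42, adjusted p = 0.0766, call kept in 9 of 22), and Rsad2, the antiviral protein viperin, from 24.8 to 4.03 CPM (log2 fold change -2.04, SE 0.55, adjusted p = 0.0747, call kept in 9 of 22). For each of the 4, all 11 HFD mice were below the RFD median, and the groups overlapped. The differences within the number series were -2.37, -1.56 and -0.95 for Isg15 and -2.44, -2.55 and -2.04 for Rsad2. The count rested on single mice and was 0 without RFD mouse 1, 23 or 24 or HFD mouse 6, 8, 70 or 80, 1 without RFD mouse 3, 21 or 22, 2 without RFD mouse 84 or HFD mouse 5 or 50, 5 without HFD mouse 60 or 62, 7 without RFD mouse 4, 20 without RFD mouse 20 and 24 without HFD mouse 64, whereas the list median stayed between -1.3 and -1.05. With the tuft and enterocyte covariate 1 member was called (median -0.86), with the Paneth covariate 0 (median -0.94), and without the 5 samples rich in Paneth markers 5. Leukocytes also express these genes, and macrophage markers had medians of 31.8 CPM on RFD and 7.09 CPM on HFD, while T cell markers reached 58.6 and 62.5 CPM at most and macrophage markers 617 and 851 CPM. The part of tuft, Paneth and leukocyte markers in the result was not tested beyond the fits above.

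A letter pattern of interferon-response elements was found in some of the promoters of these genes and not in others. The pattern GAAANNGAAA, in which N is any base, was searched on both strands in the window from 250 bases before to 50 bases after the gene start (RefSeq, GRCm38.p6). Matches can overlap each other. It was found in 943 of 27025 promoters (3.49%), in 327 of the 10293 promoters of tested genes (3.18%), in 21 of 48 promoters of the interferon and MHC class I lists (43.8%) and in 5 of the 12 of their called members that had a promoter in the table (41.7%). The 150 bases before the gene start are shown for the 4 called interferon-stimulated genes that held a match, in gene orientation with the matches in capitals, Isg15 from chr4:156200819-156200968, Bst2 from chr8:71537473-71537622, Oas1g from chr5:120887614-120887763 and Rsad2 from chr12:26456453-26456602, all on the minus strand.
Isg15: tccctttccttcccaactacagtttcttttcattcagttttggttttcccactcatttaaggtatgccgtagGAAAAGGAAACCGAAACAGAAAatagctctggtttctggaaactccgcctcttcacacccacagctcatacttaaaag
Bst2: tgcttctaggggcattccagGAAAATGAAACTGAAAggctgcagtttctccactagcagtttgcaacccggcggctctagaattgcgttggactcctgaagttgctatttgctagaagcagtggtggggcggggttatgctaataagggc
Oas1g: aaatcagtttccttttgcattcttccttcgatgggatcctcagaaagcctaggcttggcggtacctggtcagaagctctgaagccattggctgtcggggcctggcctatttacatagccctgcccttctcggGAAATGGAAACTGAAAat
Rsad2: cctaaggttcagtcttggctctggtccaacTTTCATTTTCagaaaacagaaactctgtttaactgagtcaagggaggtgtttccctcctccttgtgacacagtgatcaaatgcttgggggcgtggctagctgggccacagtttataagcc
In Isg15 the matches overlapped and began 78, 72 and 66 bases before the gene start, in Bst2 130 and 124 bases, in Oas1g 18 and 12 bases, and in Rsad2 the match lay on the opposite strand from 120 bases before the start. The corresponding search for PPAR-type direct repeats, with the letters AGGNCANAGGNCA, matched 103 of 27025 promoters (0.381%), 29 of the 10293 of tested genes (0.282%) and 0 of 57 promoters in the 6 lists of fatty acid oxidation, ketone bodies, Cyp4, thioesterases and lipid droplets. Such elements often lie outside a window of this length, and no match says only that these letters are not in it.

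Genes of MHC class I presentation, several of which interferons induce, were lower in part. Of 25 tested, 5 were called lower and 0 higher (median -0.57), and the count of 5 became 2 without RFD mouse 1, 3, 84, 21, 22, 23 or 24 or HFD mouse 6, 8, 70 or 80, 3 without HFD mouse 5, 50 or 62, 8 without HFD mouse 63 and 9 without RFD mouse 20 or HFD mouse 64. H2-Q7, a nonclassical class I molecule (chr17:35439155-35443773), had 7.44 to 78.1 CPM on RFD (median 36.9) and 1.17 to 18.8 CPM on HFD (median 6.76) (log2 fold change -2.16, SE 0.42, adjusted p = 0.0187), and H2-Q6 had 5.01 to 53.1 CPM (median 19.1) on RFD against 0 to 9.62 CPM (median 2.27) on HFD (log2 fold change -2.69, SE 0.56, adjusted p = 0.0295). Both were called in all 22 fits that left out 1 mouse and with the tuft and enterocyte covariate (adjusted p = 0.0714 and 0.0843). H2-K1, a classical class I heavy chain, fell from a median of 1904 to 702 CPM (log2 fold change -1.18, SE 0.31, adjusted p = 0.0691, call kept in 11 of 22), and Psmb8, a subunit of the immunoproteasome, from 174 to 71 CPM (log2 fold change -1.06, SE 0.30, adjusted p = 0.0766, call kept in 8 of 22). The H2 genes are close copies of each other, so their separate levels are uncertain. None of 9 tested class II genes was called by edgeR, 0 by DESeq2 and 0 passed an unadjusted p under 0.05, and Cd74, the invariant chain, had 31 to 1369 CPM on RFD (median 399) and 10.9 to 1125 CPM on HFD (median 129).

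Of 14 lectins and mucosal defence molecules 3 were lower. Reg3b, an antibacterial C-type lectin, had 763 to 5228 CPM on RFD (median 2076) and 137 to 2185 CPM on HFD (median 461) (log2 fold change -1.66, SE 0.45, adjusted p = 0.0747, call kept in 11 of 22). Mbl2, a complement-activating lectin, had 69 reads in 7 of 11 RFD mice and no read in any HFD mouse, which made it at least 20.3-fold lower on HFD against a floor of 3 reads over the group (adjusted p = 0.0513, call kept in 21 of 22). The pooled Mbl2 reads were uneven, with 19.18 CPM in RFD mouse 84 and 5.27 CPM at most in the other RFD mice. Nos2, the inducible nitric oxide synthase, had 45 reads in 7 RFD mice and 2 reads in 1 HFD mouse, a ratio of 19.9 of RFD over HFD (95% exact interval 5.19 to 169, counting error only; adjusted p = 0.0667, call kept in 15 of 22). Its RFD values were highest in mouse 21 at 7.36 CPM and reached 3.52 CPM at most in the other RFD mice, so the pooled ratio leans on that mouse. Il18, an epithelial cytokine of the IL-1 family, was the 1 called gene of 11 cytokines and receptors, with medians of 21.1 and 9.57 CPM (log2 fold change -1.08, SE 0.33, adjusted p = 0.0904, call kept in 4 of 22). Il25 had 0 to 55.4 CPM (median 14.6) on RFD against 0 to 22.6 CPM (median 5.0) on HFD (log2 fold change -1.44, SE 0.62, adjusted p = 0.214) and Tslp had 0 to 30.1 CPM (median 5.81) on RFD against 0 to 20.2 CPM (median 2.47) on HFD (log2 fold change -0.77, SE 0.69, adjusted p = 0.587), and neither was called. The ranges of both cytokines overlapped between the diets, and both have a few mice with no read.

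Tuft cell markers had log2 fold changes below 0 on the whole, and none passed the test in the fit without covariates. All 25 tuft markers were tested and none was called by edgeR without covariates, but 24 had a negative log2 fold change, 13 had an unadjusted p under 0.05, and the median was -0.96. DESeq2 called 4 of them lower, limma-voom with quality weights 25, edgeR with the enterocyte markers as a covariate 11 and edgeR with the Paneth covariate 0. Of all genes, these 4 fits called 702, 1926, 722 and 11 lower. Trpm5 had 424 to 5212 CPM on RFD (median 2474) and 46.8 to 4697 CPM on HFD (median 924) (log2 fold change -1.14, SE 0.57, adjusted p = 0.295). Dclk1, the kinase that marks tuft cells, had 382 to 1750.5 CPM (median 1117) on RFD against 33.4 to 2369 CPM (median 662) on HFD (log2 fold change -0.55, SE 0.46, adjusted p = 0.555), and Siglecf, whose protein was used for the sort, had 204 to 1492 CPM on RFD (median 1193) and 25.6 to 1805 CPM on HFD (median 526) (log2 fold change -0.84, SE 0.50, adjusted p = 0.382). Epcam, also used for the sort, had medians of 886 and 985 CPM, and Ptprc, which encodes CD45, 153 and 78 CPM. Of 12 tuft cell transcription factors, Runx1 was called lower, with 14.9 to 119.5 CPM (median 55) on RFD against 3.34 to 68.3 CPM (median 19.4) on HFD (log2 fold change -1.25, SE 0.35, adjusted p = 0.0766, call kept in 8 of 22). Medians of the lists were -0.80 for 14 genes of the taste cascade, -0.91 for 22 genes of leukocyte-type signalling such as the phosphatase Ptpn18 (-1.15, adjusted p = 0.217), -0.79 for 24 genes of structure and surface such as the keratin Krt18 (-1.01, adjusted p = 0.247), and -0.31 for 14 genes of eicosanoid synthesis such as Alox5 and its partner Alox5ap (-1.09 and -1.08, adjusted p = 0.233 and 0.24). None of these 4 lists had a gene called by edgeR without covariates. With the enterocyte markers as a covariate, 6 genes of the taste cascade and 10 of leukocyte-type signalling were called lower, 7 of structure and surface lower and 1 higher, and 3 of eicosanoid synthesis lower and 1 higher. That fit called 722 lower and 685 higher of all 14020 genes.

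Among genes of neurotransmission, 1 of 6 acetylcholine genes was called lower. Slc18a3, the vesicular carrier of acetylcholine, had 58 reads in 8 of 11 RFD mice and 1 read in 1 of 11 HFD mice, a ratio of 51.2 of RFD over HFD (95% exact interval 8.83 to 2060, counting error only; adjusted p = 0.0235). Cacnb3, a subunit of voltage-gated calcium channels, had 12.7 to 71.9 CPM (median 28.4) on RFD against 5.83 to 18.1 CPM (median 14.6) on HFD (log2 fold change -1.3, SE 0.26, adjusted p = 0.0269). Cnih3, an auxiliary protein of glutamate receptors and, like Cacnb3, outside that list, fell from a median of 22.1 to 2.97 CPM (log2 fold change -2.99, SE 0.58, adjusted p = 0.0187), with a difference of -0.27 within the multiples of 10. These 3 genes were called in all 22 fits that left out 1 mouse and also with the tuft and enterocyte covariate (adjusted p = 0.0254, 0.0631 and 0.0984). Gabbr1, which encodes part of the metabotropic receptor for GABA, had 1.44 to 38.6 CPM on RFD (median 11.4) and 0 to 11.7 CPM on HFD (median 3.23) and was not called (log2 fold change -1.51, SE 0.71, adjusted p = 0.255), nor was Serpini1, which encodes neuroserpin, with 0 to 31.6 CPM (median 17.5) on RFD against 0 to 59.1 CPM (median 14.1) on HFD (log2 fold change 0.12, SE 0.57, adjusted p = 0.941).

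Genes of translation were higher on HFD, with a few of crypt stem and dividing cells. Of 42 cytosolic ribosomal protein genes, all had a log2 fold change above 0, 20 were called higher, against 1.83% of all genes, and the median was 0.75. Rps23 had 63.7 to 162 CPM on RFD (median 102) and 105 to 319.5 CPM on HFD (median 184) (log2 fold change 0.91, SE 0.20, adjusted p = 0.0419) and Rps7 102 to 326 CPM (median 166) on RFD against 123 to 728 CPM (median 390.5) on HFD (log2 fold change 1.13, SE 0.25, adjusted p = 0.0425), and Rpl32 and Rps18 had log2 fold changes of 1.03 and 0.98 (adjusted p = 0.0494 and 0.0506, calls kept in 20 and 19 of 22). Rpl36a, the ribosomal gene with the smallest p and not a member of the list, had 21.4 to 85.6 CPM on RFD (median 38) and 39.9 to 122 CPM on HFD (median 84) (log2 fold change 1.05, SE 0.23, adjusted p = 0.0399). The count of called ribosomal genes was 2 without HFD mouse 6 or 80, 3 without HFD mouse 70, 4 without RFD mouse 1, 84, 21, 22 or 23 or HFD mouse 8, 5 without RFD mouse 3 or 24, 9 without HFD mouse 62, 12 without HFD mouse 50, 13 without HFD mouse 5 and 34 without RFD mouse 20 or HFD mouse 64. It was 2 with the tuft and enterocyte covariate, 0 with the Paneth covariate and 13 without the 5 samples rich in Paneth markers. Many ribosomal genes have pseudogenes with the same letters, so single levels are uncertain. Olfm4 and Smoc2, markers of crypt stem cells, were the 2 called genes of 18 and rose from medians of 216 and 49.5 to 1036 and 181 CPM (log2 fold change 2.05, SE 0.56, adjusted p = 0.0766, call kept in 11 of 22 for Olfm4 and log2 fold change 1.71, SE 0.42, adjusted p = 0.0624, call kept in 11 of 22 for Smoc2).

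Of 44 genes of the cell cycle, 42 had a log2 fold change above 0, 31 an unadjusted p under 0.05 and 3 were called, namely Hmgb2, a chromatin protein of dividing cells (log2 fold change 1.37, SE 0.33, adjusted p = 0.0515, call kept in 18 of 22), Stmn1, a regulator of microtubules (log2 fold change 1.67, SE 0.48, adjusted p = 0.0811, call kept in 9 of 22), and the mitotic kinase Aurka (log2 fold change 1.35, SE 0.40, adjusted p = 0.0866, call kept in 4 of 22). The median was 1.25, and 14 members were called without the 5 samples rich in Paneth markers, 14 with the number series as a term, 1 with the tuft and enterocyte covariate and 0 with the Paneth covariate. Of all genes, 290 were called higher without these 5 samples and 298 with the number series as a term. The count was 0 without RFD mouse 24 or HFD mouse 6, 70 or 80, 1 without RFD mouse 1, 3, 84, 21, 22 or 23 or HFD mouse 8, 50 or 62, 9 without HFD mouse 63, 27 without HFD mouse 64 and 34 without RFD mouse 20. Incenp, a mitotic protein of the centromere and not a member of the list, had 0 to 12.7 CPM on RFD (median 3.77) and 1.44 to 50.7 CPM on HFD (median 27.4) (log2 fold change 2.34, SE 0.45, adjusted p = 0.0187) and was called in all 22 fits that left out 1 mouse. Of 20 Paneth cell products none was called by edgeR without covariates, 7 were called higher with the number series as a term, 4 without the 5 samples rich in Paneth markers and 5 by DESeq2, with 10 at an unadjusted p under 0.05 and a median of 2.3. Lyz1, the Paneth lysozyme, had 11.1 to 32801 CPM on RFD (median 502) and 33.7 to 202500.0 CPM on HFD (median 10862) (log2 fold change 2.67, SE 1.19, adjusted p = 0.231), a spread within each diet that was larger than the difference between them. The medians of summed stem, dividing and Paneth markers were higher in the HFD samples, and their part in the ribosomal and cell cycle values was not tested beyond the fits above.

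Several genes outside the lists were among the 30 with the smallest p. Esrp1, a splicing factor of epithelial cells, had 4.12 to 38.2 CPM on RFD (median 16.7) and 32.1 to 93.1 CPM on HFD (median 59.9) (log2 fold change 1.57, SE 0.30, adjusted p = 0.0187). Nup54, a protein of the nuclear pore, had 3.52 to 11.3 CPM (median 6.68) on RFD against 11.7 to 33.5 CPM (median 18.9) on HFD (log2 fold change 1.43, SE 0.30, adjusted p = 0.0319), and its groups did not overlap. Mfsd4a, a membrane transporter of unknown cargo, had 25.9 to 62.4 CPM on RFD (median 42.1) and 3.95 to 30.4 CPM on HFD (median 7.26), with 10 HFD mice below every RFD mouse (log2 fold change -1.84, SE 0.33, adjusted p = 0.0159). Ada, which deaminates adenosine, fell from a median of 142 to 26 CPM (log2 fold change -2.12, SE 0.46, adjusted p = 0.0359), Aspa, which splits N-acetylaspartate, from 38.7 to 15.9 CPM (log2 fold change -1.43, SE 0.30, adjusted p = 0.0294), and Cwh43, which remodels the lipid of membrane anchors, from 34.3 to 5.91 CPM (log2 fold change -2.13, SE 0.45, adjusted p = 0.0315). Lars2, the mitochondrial leucyl-tRNA synthetase, had 248 to 1749.9 CPM (median 918) on RFD against 126 to 533 CPM (median 234) on HFD (log2 fold change -1.82, SE 0.34, adjusted p = 0.0187). The share of reads on AY036118 was lower on HFD in the same samples, 2.52% to 10.9% against 4.21% to 16.6%, and its part in the Lars2 result was not tested.

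Lists of the clock, of immediate early genes and of stress and antioxidant responses gave at most 2 calls each. Of 20 clock genes, Per3 was lower, with 12.7 to 44.2 CPM on RFD (median 28) and 6.68 to 16.6 CPM on HFD (median 11.3) (log2 fold change -1.29, SE 0.27, adjusted p = 0.0293), and 9 HFD mice were below every RFD mouse. Per3 was called without each mouse in turn and with the Paneth covariate (adjusted p = 0.0994). The immediate early genes Fos and Jun, which also respond to tissue dissociation, were higher (log2 fold change 1.46, SE 0.42, adjusted p = 0.0811, call kept in 7 of 22 and log2 fold change 1.38, SE 0.37, adjusted p = 0.0747, call kept in 12 of 22), and the other 21 members of their list were not called. Asns, an amino acid synthetase induced by cell stress, was the 1 called gene of 23 of the unfolded protein response (log2 fold change 1.41, SE 0.41, adjusted p = 0.0866, call kept in 6 of 22). Of 27 antioxidant genes, Gpx2, a glutathione peroxidase of the epithelium, was higher (log2 fold change 1.35, SE 0.40, adjusted p = 0.0894, call kept in 6 of 22) and Prdx5, a peroxiredoxin, was lower (log2 fold change -0.65, SE 0.19, adjusted p = 0.0882, call kept in 5 of 22). No gene was called by edgeR without covariates among 14 of Notch signalling and secretory fate, 19 of tight junctions and 19 gut hormones, where 1, 5 and 0 passed an unadjusted p under 0.05 and DESeq2 called 0, 5 and 0.

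The series holds a second set of 23 samples, LTF, from other mice on the same diets, for which the labels also state 9 weeks while the methods of the study describe a second, longer feeding period. Of the 431 genes called here, 413 had the same sign there and 173 also had an unadjusted p under 0.05. Of the 431 genes, 37 were among the 102 genes called in that set. The shares of all genes tested that had the same sign in both sets, or an unadjusted p under 0.05 in the second, were not computed. Whether the called genes shared their sign more often than genes in general was therefore not tested. Cyp4a10 and Acot1 had log2 fold changes of 6.25 and 3.65 there. Plin2 had 1.48, Mgam -1.32 and H2-Q7 -2.49. Values nearer to 0 were found for Pck2 (0.08), Nup54 (0.27), Lars2 (-0.38) and Nos2 (0.28). The interaction of diet and set did not pass the test for any of these 9 genes, so that a difference between the sets was not shown, and their unadjusted interaction p were between 0.00203 and 0.666.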

How the data were processed

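Bulk RNA-seq libraries of sorted small-intestinal tuft cells were analysed from the read count tables that the authors deposited. Per the labels, reads were trimmed with cutadapt 1.15 and aligned with STAR 2.6.0, and per the methods of the study genes were quantified with RSEM. The authors deposited estimated counts per gene that RSEM made from these alignments, with no normalization. Of those above 0, 8.79% were not whole. The genome build and annotation are not given in the sources used here, and 47310 of 47729 gene identifiers matched GENCODE M21 (GRCm38), from which coordinates were taken. Whether counting used strand is not stated. The authors also deposited TPM values, used here as an alternative only, and FPKM values, not used here. The used count tables held 24 columns without a label in the series, which were left out.

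Estimated counts were rounded, 27 rows with a repeated symbol were dropped, and 14020 genes that exceeded 5 reads in 6 or more of the 45 libraries were tested. The 22 libraries were fitted in R 4.3.3 with edgeR 4.0.16 (TMM factors, quasi-likelihood test, no covariate, Benjamini-Hochberg adjustment over all genes tested, threshold 0.1). Standard errors were taken from the log2 fold change and its F statistic. DESeq2 1.42.0 and limma 3.58.1 served as alternatives, and the fitting code was tested on simulated data. Library totals ran from 189340 to 4193097 reads, which limits genes of few reads. Intervals of read ratios cover counting error only. Each sample is described as coming from 1 mouse, and no 2 libraries held the same values.

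Named genes were the 15 higher and 15 lower genes with the smallest p, up to 4 called members of each gene list with the smallest p or, where none was called, up to 2 with the highest mean CPM, and 10 genes of tuft cells and sorting. Some were left out of the text. The gene lists and the comparison itself were chosen with earlier results of these data known. Promoter sequences are those of RefSeq on GRCm38.p6. The alternatives without the samples rich in Paneth markers and with the Paneth marker level as a covariate were chosen after seeing the data.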

Additional observations from a re-analysis of the deposited data

Results flagged for a closer look

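The effect of diet differed between the 2 sets of mice for 1 gene of 14020 tested for the interaction of diet and set with edgeR's quasi-likelihood test (459 genes had an unadjusted p under 0.05). The gene was Nts, which encodes the gut hormone neurotensin, with an interaction of -8.45 on the log2 scale (adjusted p = 0.0695). In the STF set, Nts had 0 to 20.7 CPM on RFD (median 0.753, no read in 5 of 11 mice) and 0 to 32.3 CPM on HFD (median 0, no read in 8 of 11). In the LTF set it had 0 to 285 CPM on RFD (median 25.7, no read in 3 of 11 mice) and 0 to 0.986 CPM on HFD (no read in 10 of 12). The adjusted p was 0.102 without the samples of low totals, 0.408 with DESeq2 and 0.00251 with no filter on low counts. Nts is a product of enteroendocrine cells, whose markers varied from 61.2 to 6118 CPM among the HFD mice of the STF set, and their part in the result was not tested.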

How the results depend on the processing

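Against 431 called genes (257 higher and 174 lower), DESeq2 called 1534 (832 higher and 702 lower), limma-voom with quality weights 4245 (2319 higher and 1926 lower), edgeR with no filter on low counts 260 (166 higher and 94 lower), and limma on TPM 9 (7 higher and 2 lower) at a pseudocount of 1 and 5 (5 higher and 0 lower) at 0.1. Without the 2 samples of low totals 254 (119 higher and 135 lower) were called, without the mouse numbers 21 to 64 173 (87 higher and 86 lower), without the multiples of 10 642 (386 higher and 256 lower) and without the numbers 1 to 8 0 (0 higher and 0 lower), where 1116 genes had an unadjusted p under 0.05. The number series as a term gave 435 (298 higher and 137 lower), a filter over the 22 libraries 486 (276 higher and 210 lower). With the tuft minus enterocyte marker level as a covariate 87 (34 higher and 53 lower) were called, with the enterocyte level 1407 (685 higher and 722 lower), with the Paneth level 18 (7 higher and 11 lower) and without the 5 samples rich in Paneth markers 406 (290 higher and 116 lower). The last 2 were chosen after seeing the data. A threshold of 0.05 gave 54 (30 higher and 24 lower). Leaving out 1 mouse gave 48 to 2004 called genes, 24 to 1087 higher and 24 to 965 lower. Fewer samples enter some of these fits, and the cause of the different counts was not tested. Of the 431 genes, 389 were also called by DESeq2 and 423 by limma-voom. The interaction of diet and set called 68 genes with no filter, 0 with DESeq2 (572 at an unadjusted p under 0.05) and 0 without low totals (445). All 72 called genes among the 104 named kept their direction under every alternative that tested them, and the filter over the 22 libraries tested 68. Of the genes not called, Tslp turned to 0.50 without the numbers 1 to 8, and Serpini1 to -0.57 with limma-voom, -0.24 without the numbers 21 to 64 and -0.13 with the enterocyte covariate, and without 1 mouse it ran from -0.26 to 0.26. No paired analysis was possible because RFD and HFD mice of the STF set share no number.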
